A study of Drosophila melanogaster with 3 samples.

Results

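The left arm of chromosome 3, named 3L, carried 1496 of the 6469 reproducible peaks of a chromatin immunoprecipitation and sequencing (ChIP-seq) experiment in Drosophila melanogaster. The peaks were selected as those called on 3L in the set of peaks that passed an irreproducible discovery rate (IDR) threshold, called the IDR set below, and the arm itself was chosen on measured values, because its peak density was higher than that of the arms 2L and 3R. DNA was recovered with an antibody against green fluorescent protein from whole white prepupae of 1 transgenic line that carries CG8632, also named ZnT49B, with eGFP at its C-terminus. The series held 3 biological replicates of that 1 group, with males and females pooled and no age given, and chromatin was sonicated to between 200 and 800 bp. Control samples were not analysed here, so whether recovery depended on the fusion protein was not tested. The labels number the samples as biological replicates, but the spread between them may include technical differences, and in whole animals the tissues that gave a peak cannot be told apart.

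White prepupae are animals that have just formed the puparium after the pulse of the steroid hormone ecdysone that ends larval life. Chromosome 3L carries several loci known from polytene chromosome puffs, among them Eip74EF, Eip75B and Eip78C. Others are the glue protein genes Sgs3, Sgs7 and Sgs8 and the small heat shock genes of cluster 67B. In a fly genome, factors and open chromatin are found mainly at transcription starts, in introns and in the sequence between genes, where many enhancers of developmental genes lie. ZnT proteins are membrane transporters of zinc, so a recovered site need not mark direct contact of such a protein with DNA.

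The sequence around a summit is shown for the strongest peak in 3 of the 4 intergenic gaps of 3L that held most peaks, since such gaps held much of what set 3L apart, and for the strongest 3L peak, at the start of CG14100, as a promoter to read them against. Each run is 201 bases, centred on the summit, from the plus strand of the dm6 build (Release 6 genome, RefSeq). Capitals mark the longest run of A and T alone.
NijA to CG43245, chr3L:10760267-10760467: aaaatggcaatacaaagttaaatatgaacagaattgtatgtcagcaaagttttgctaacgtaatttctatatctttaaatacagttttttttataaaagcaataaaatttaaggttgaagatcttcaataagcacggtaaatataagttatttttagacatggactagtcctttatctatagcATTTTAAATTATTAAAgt
tRNA:Ile-TAT-1-2 to CG13898, chr3L:781250-781450: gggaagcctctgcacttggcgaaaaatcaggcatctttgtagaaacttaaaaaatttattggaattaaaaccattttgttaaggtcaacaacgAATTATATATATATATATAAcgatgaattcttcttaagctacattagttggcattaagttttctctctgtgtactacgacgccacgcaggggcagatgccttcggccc
Aps to lncRNA:CR45248, chr3L:10942624-10942824: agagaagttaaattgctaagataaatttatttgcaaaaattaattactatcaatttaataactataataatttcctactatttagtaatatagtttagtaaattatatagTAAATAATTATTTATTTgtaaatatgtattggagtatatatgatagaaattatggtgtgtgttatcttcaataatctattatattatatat
CG14100, chr3L:19590512-19590712: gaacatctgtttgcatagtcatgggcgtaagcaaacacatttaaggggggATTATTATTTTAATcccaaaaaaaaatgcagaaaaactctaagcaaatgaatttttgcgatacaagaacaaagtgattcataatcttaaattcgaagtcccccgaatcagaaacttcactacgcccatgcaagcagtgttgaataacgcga

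The 4 windows were poor in G and C, with 23.9%, 37.8%, 16.4% and 36.8% GC in the order shown, against 42.1% over all windows of this length along 3L. Their longest runs of A and T were 16, 20, 17 and 14 bases. Over the 1496 summits of 3L this longest run had a median of 13 bases (quartiles 10 and 17), against 9 in windows along the whole arm. A run of 20 bases or more lay at 14.6% of the 3L summits and in 4.86% of the windows along the arm. The same median of 13 bases held for the 2641 summits of 2L and 3R, of which 13.9% had a run of 20 bases or more.

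The density of peaks on 3L, in IDR peaks per sequenced megabase (Mb), was 53.4, against 49.5 on 2L and 46.1 on 3R. In the strongest 6469 calls of replicates 1, 2 and 3, as many as the IDR set holds, 3L had 53.9, 52.4 and 53.4 per Mb, and 2L and 3R combined had 47.9, 47.1 and 47.3. All 3 replicates thus lay above the other arms, and no 3L value overlapped a value of 2L and 3R. The difference was 5.92 peaks per Mb in the IDR set and 5.82 ± 0.443 over the replicates (SD, n = 3), a ratio of 1.12, and it corresponds to 166 peaks on an arm of 28.0 Mb. This difference chose the arm and is given as a description, with no test; 3 paired differences could in any case not give an exact two-sided p under 0.25. The X chromosome, at 52.7 per Mb in the IDR set and 52.8 ± 3.03 over the replicates, was as dense as 3L within that spread.

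The IDR set was the part of the pooled list above a signal limit, and the signal is the peak caller's own value. The weakest 3L peaks just inside the limit, at ranks 6453, 6460 and 6467, had pooled signals of 105.1, 105.0 and 104.8. The first 3L calls just outside, at ranks 6484, 6485 and 6487, had 104.6, 104.5 and 104.5, so the members nearest the limit hardly differed from the calls nearest it outside.

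The higher density of 3L lay in intergenic peaks. A summit was counted at a start if any transcript in the annotation began within 500 bp of it, and every other summit as intronic, exonic or intergenic. Intergenic peaks of 3L numbered 421, or 15.04 per Mb of arm, against 9.44 on 2L and 7.89 on 3R. Replicates 1, 2 and 3 gave 15.004, 14.9 and 13.9 per Mb on 3L, against 8.30, 8.51 and 7.86 on 2L and 3R together. The lowest replicate of 3L was thus well above the highest of the other arms. The difference of 6.49 peaks per Mb (6.35 ± 0.356 over the replicates) amounted to 110% of the whole difference, and the ratio was 1.76 (1.77 ± 0.0325).

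Peaks at transcription starts were about as dense on 3L as on the other arms. They numbered 477, or 17.04 per Mb, against 17.2 on 2L and 3R, and the replicates differed by −0.452, −0.373 and −0.478 per Mb. Against the single arms the sign was not the same, with 18.3 per Mb on 2L and 16.4 on 3R. The 562 intronic peaks gave 20.1 per Mb against 20.9, and the replicate differences of −0.658, −0.620 and 0.424 did not share a sign. Exonic peaks over 500 bp from a start were few on 3L, at 36 or 1.29 per Mb against 0.828, and their replicate differences were 0.441, −0.0435 and 0.172. Of all 3L summits, 28.1% were intergenic by this rule, against 18.0% on 2L and 3R.

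**Figure D1:**
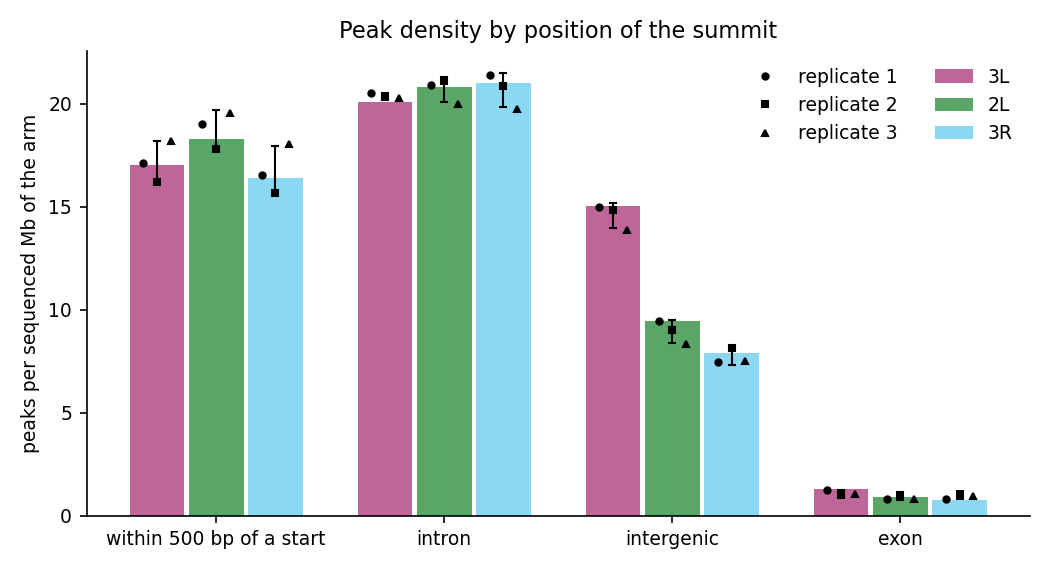
Peaks per sequenced Mb of 3L, 2L and 3R by where the summit lay, with bars for the IDR set, symbols for the strongest 6469 calls of each replicate and error bars for their mean ± SD (n = 3). The intergenic bar of 3L, at 15.04 per Mb, stands above those of 2L (9.44) and 3R (7.89), while the bars at starts and in introns are close to each other.

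The arms differ in how much pericentric sequence, the repeat-rich and gene-poor part next to the centromere, their assembly holds. On 3L the 4.999 Mb beyond 23 Mb carried 0 IDR peaks and 0, 1 and 0 of the strongest calls of the replicates, so this stretch lowers the density of the whole arm. With it left out, as well as 2L beyond 22 Mb and 3R before 4 Mb, the difference between 3L and the other arms was 12.4 peaks per Mb (12.2 ± 0.582). Intergenic peaks then made up 8.84 per Mb of it (8.64 ± 0.457), or 71.5%. On that scale the differences at starts (1.67; replicates 1.38 ± 0.0781) and in introns (1.20; 1.88 ± 0.671) also became positive. The signs of the parts at starts and in introns therefore depended on how much of the arm was counted, while the intergenic part was the largest on both scales.

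Intergenic sequence over 500 bp from a start took up 32.0% of the whole of 3L, 28.6% of 2L and 23.9% of 3R, so 3L held the most of it. Per Mb of that sequence 3L had 47.0 IDR peaks (45.5 ± 1.95 in the replicates), 2L 33.1 (31.3 ± 1.95) and 3R 33.0 (32.3 ± 1.59). Intergenic peaks were thus denser on 3L also for the intergenic sequence it holds, in all 3 replicates. The replicates call peaks on the same genome, so their spread does not measure how much loci or arms vary. Without pericentric sequence its share was 25.4% of 3L, 25.8% of 2L and 23.3% of 3R, and 3L had 72.1 IDR peaks per Mb of it, 2L 39.0 and 3R 38.7. Replicates 1, 2 and 3 gave 71.9, 71.2 and 66.4 on 3L, a mean of 69.9 ± 2.99, against 36.9 ± 2.31 on 2L and 37.7 ± 1.86 on 3R. On that scale sequence near starts had 136 peaks per Mb on 3L, 125 on 2L and 124 on 3R, and introns had 64.6, 59.2 and 61.3.

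Along the arm, peaks were not even. In 1 Mb bins counted from the telomere end, the 28 full bins of 3L held between 0 and 103 IDR peaks, with a median of 60.5 (quartiles 40.0 and 72.5), against a median of 50 in the 55 full bins of 2L and 3R. Of the 28 bins, 16 were above that median, and the 5 at 0 were the last 5 before the centromere. Replicate counts of the bins before them moved little, with a median SD of 3.46 peaks over the 23 bins and a highest SD of 8.72.

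The 5 fullest bins were bins 1, 17, 4, 11 and 12. They held 103, 102, 99, 90 and 89 IDR peaks, 483 in all or 32.3% of those of 3L (33.0% ± 0.152 in the replicates). The 5 fullest bins of 2L held 32.3% of its peaks and those of 3R 27.9%, so the share taken by the leading bins was not larger on 3L than on 2L. Intergenic peaks were 39.8% of the peaks in these 5 bins. Without each arm's own 5 fullest bins, the remaining bins held 44.0 peaks each on 3L, 43.7 on 2L and 39.5 on 3R. The 23 such bins of 3L include the 5 at 0, and with pericentric bins left out on every arm the values were 56.3, 46.2 and 46.3.

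The 5 bins were of different makeup. Bin 1 held 47 intergenic peaks and 27 at starts, and its replicate counts of all peaks were 96, 100 and 110. Bin 11 held 49 intergenic peaks against 8 at starts, and 61 protein-coding genes had their lower coordinate in it, the fewest of the 5. Its replicate counts were 90, 92 and 76. Bin 12 held 44 intergenic peaks and 31 at starts, with replicate counts of 98, 95 and 100. Bins 17 and 4 were instead led by introns, with 46 and 45 intronic peaks against 25 and 27 intergenic ones, and their replicates gave 111, 100 and 98 and then 105, 98 and 107.

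**Figure D2:**
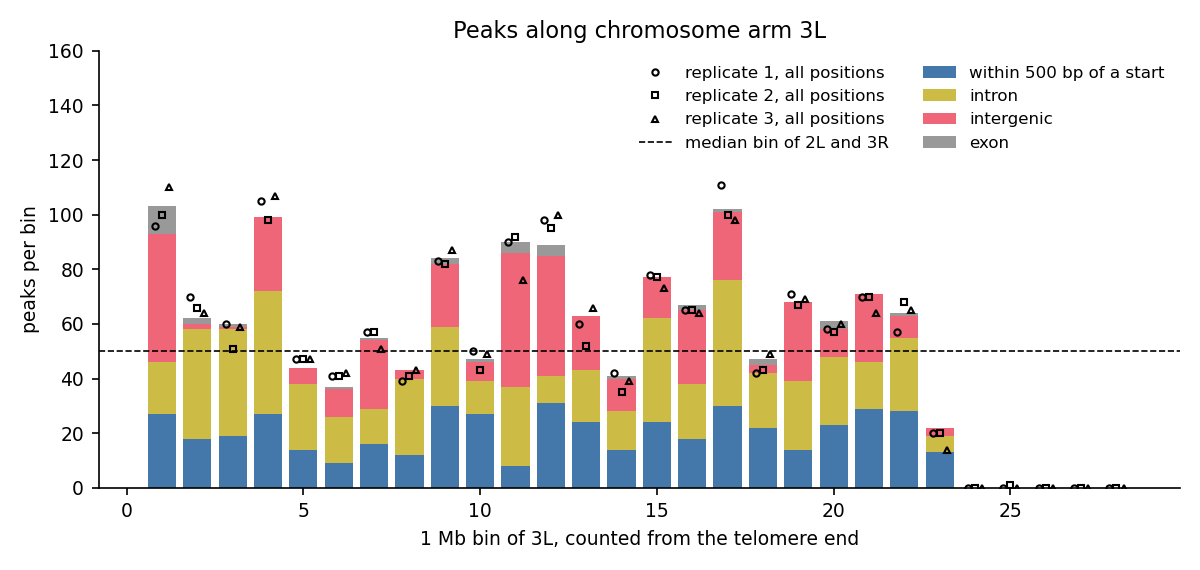
IDR peaks in each full 1 Mb bin of 3L from the telomere end, stacked by where the summit lay, with open symbols for all strongest calls of each replicate and a dashed line at the median bin of 2L and 3R (50 peaks). Bins 1, 11 and 12 carry most intergenic peaks (47, 49 and 44), and the 5 bins next to the centromere are at 0.

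Much of the intergenic difference came from gaps between genes that held several peaks each. A gap is the stretch between neighbouring annotated genes of any kind. Gaps with 5 or more intergenic IDR peaks numbered 22 on 3L, 4 on 2L and 10 on 3R. In the replicates there were 24, 22 and 18 on 3L, against 12, 11 and 8 on 2L and 3R together, so the lowest count of 3L was above the highest of both other arms summed. The 22 gaps of 3L held 162 peaks, or 38.5% of the intergenic peaks of the arm, against 11.3% on 2L and 26.9% on 3R.

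Those crowded gaps gave 5.79 peaks per Mb of arm on 3L and 1.67 on 2L and 3R, a difference of 4.11 that is 63.4% of the intergenic difference. The rest, 2.38 per Mb or 36.6%, lay in gaps with fewer peaks. Without pericentric sequence the crowded gaps gave a difference of 5.19 per Mb, which is 58.7% of the intergenic and 42.0% of the whole difference on that scale. In gaps with fewer than 5 peaks, over whole arms, 3L had 9.25 peaks per Mb of arm against 8.38 on 2L and 5.77 on 3R. Without pericentric sequence the values for such gaps were 11.3, 8.91 and 6.59. The limit of 5 peaks was set with these values known, so the split is a description. Of the 2383 gaps of 3L, 185 held an IDR peak. By length, over whole arms, 3L was the densest arm in each of 5 classes, and in gaps of 10 to 20 kb it had 78.4 peaks per Mb of gap against 40.2 on 2L and 30.1 on 3R. The 21 gaps over 50 kb on 3L held 41 peaks in 6 of them, or 13.7 per Mb (12.9 ± 0.509 in the replicates), against 2.27 in 10 such gaps of 2L and 4.33 in 10 of 3R. Most of these long gaps were pericentric, and without pericentric sequence the 6 that remained on 3L had 103 peaks per Mb, against 10.9 in 2 of 2L and 21.5 in 4 of 3R.

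**Figure D3:**
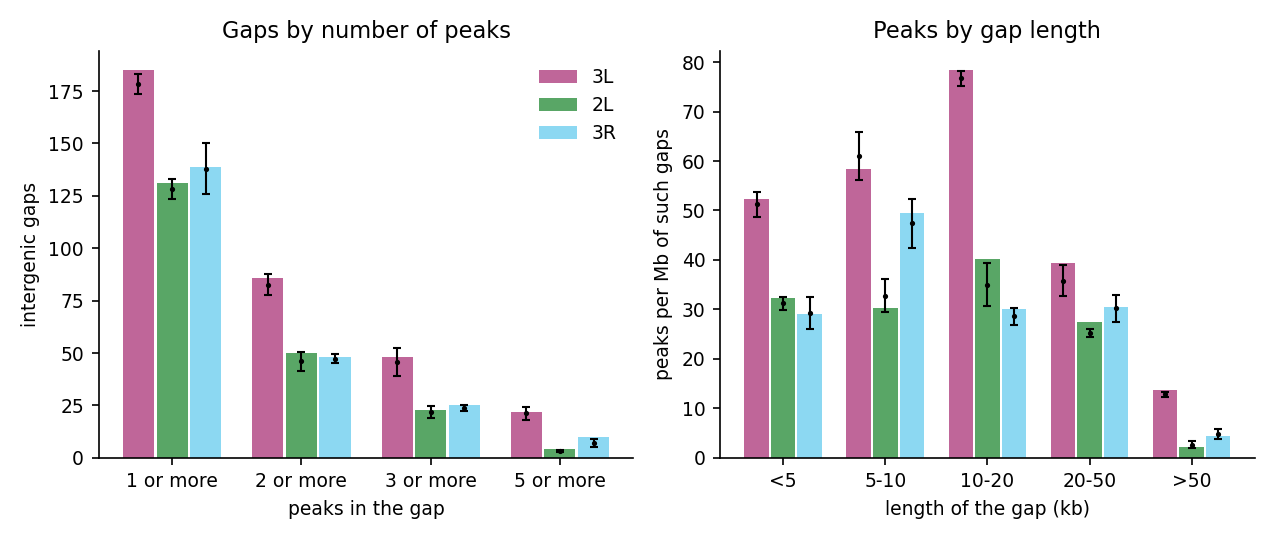
Left, the number of intergenic gaps with at least 1, 2, 3 or 5 peaks on 3L, 2L and 3R; right, peaks per Mb of gap by gap length in kb. Both panels cover whole arms, pericentric sequence included. Bars show the IDR set and points with error bars the mean ± SD of the replicates (n = 3); 3L has 22 gaps with 5 or more peaks, against 4 and 10, and the highest bar in every length class.

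The crowded gaps of 3L were 6.55 to 75.05 kb long, with a median of 18.2 kb, and lay in 11 of the 1 Mb bins, with 12 of the 22 gaps in the 5 fullest bins. Joined where under 100 kb apart, they made 13 loci. The gap with most peaks lay between NijA, which encodes the membrane protein Ninjurin A, and CG43245 (dm6, 3L, 10696878 to 10771924). It held 18 IDR peaks, and the replicates had 18, 18 and 17 calls there. Its 18 summits spanned 60.5 kb with a median spacing of 2.17 kb. Some of them belong to overlapping peaks, such as those at 10760367 and 10760569 in the same interval, so they are not 18 separate regions. The strongest of the 18, whose sequence opens the set shown above, was ranked 161 with a pooled signal of 941. Its signals in replicates 1, 2 and 3 were 339, 254 and 343. A stronger intergenic peak lay in the neighbouring gap on the other side of CG43245 (10776386 to 10776744). It was ranked 39, the strongest intergenic peak of the arm, with replicate signals of 553, 515 and 492.

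The gap from CG17154 to vers held 15 peaks within 26.9 kb, at a median spacing of 1.02 kb. Its replicate counts were 12, 11 and 12, all below the IDR count. In the pooled list some peaks overlap a neighbour with its own summit, which counts such a pair as 2 peaks, and counting overlapping peaks once left 1399 peaks on 3L. The IDR counts per gap, and so the numbers of crowded gaps, include both peaks of such pairs.

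The locus with most peaks in crowded gaps was around emc and hng3 in bin 1, between CG13896 and CG13898 (714531 to 803426). It had 3 crowded gaps with 26 intergenic peaks, and 34 IDR peaks in all. The replicates had 27, 32 and 34 calls in this stretch, a mean of 31.0 ± 3.61. emc encodes a helix-loop-helix protein that binds no DNA itself and holds back its partners, and a peak at its start was ranked 6018, near the limit of the IDR set. The strongest peak of bin 1 lay at a start of hng3, at rank 165 with a pooled signal of 937. Of the 3 gaps, that between tRNA:Ile-TAT-1-2 and CG13898 was the fullest, with 12 peaks in the IDR set and 11, 11 and 12 calls in the replicates.

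Further crowded gaps are given here with the genes at their edges, picked after the values were seen. On the 2 sides of lncRNA:CR45737, between Ids and sty (3380084 to 3401152), lay 14 peaks, with 11, 10 and 13 calls in the replicates; sty encodes Sprouty, an inhibitor of receptor tyrosine kinase signalling. On the 2 sides of hry, the hairy gene for a basic helix-loop-helix repressor, the gaps from Pex7 to hry and from lncRNA:CR44526 to SrpRbeta held 7 peaks each. The stretch from Pex7 to SrpRbeta had 13, 19 and 19 calls in the replicates, so replicate 1 was lower there than the others. On the 2 sides of Tollo, a gene of the Toll receptor family, the gaps held 8 and 5 peaks. The gap beside vvl, which encodes a POU domain transcription factor, held 7 peaks over 70.5 kb, with 5, 6 and 5 calls in the replicates. No IDR peak lay at the start of vvl itself.

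The gap beside hid, a gene that promotes cell death, held 5 peaks in 10.5 kb, with 5, 5 and 6 calls in the replicates. These were strong, with a median pooled signal of 568 and the best at rank 229, and a peak at the start of hid itself was ranked 255. Among the other crowded gaps, that from Aps, for an enzyme of inositol phosphate metabolism, to lncRNA:CR45248 in bin 11 held 9 peaks over 60.1 kb, and its counts of 9, 11 and 7 differed more between replicates. Its best peak, at rank 2443, was weaker than those of the gaps at NijA and hid. Over the 22 gaps, 21 had at least 4 calls in every replicate, and the lowest count was the 2 calls of replicate 3 between lncRNA:CR45249 and CG14147.

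**Figure D4:**
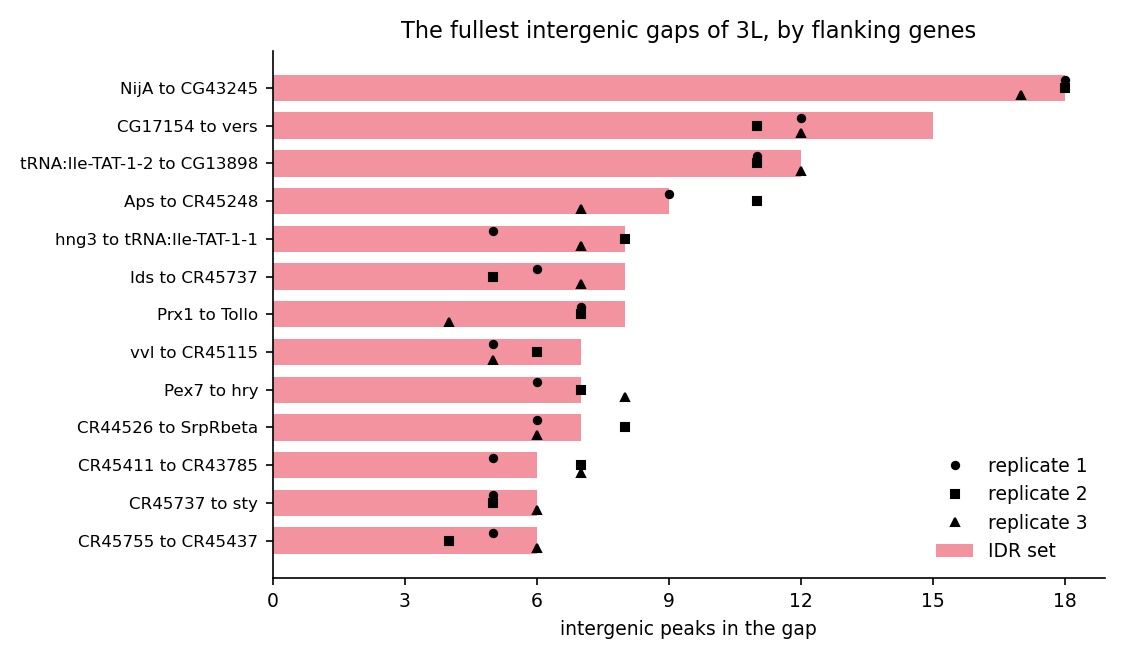
Intergenic peaks in each of the 13 intergenic gaps of 3L with most of them, named by the flanking genes, with bars for the IDR set and symbols for the strongest calls of the 3 replicates. The gap from NijA to CG43245 leads with 18 peaks and replicate counts of 18, 18 and 17.

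Intergenic peaks of 3L had a similar median distance to genes as those of the other arms, but more of them lay far from any start. The median distance to the nearest start was 3435 bp (quartiles 1470 and 7305), against 3356 bp on 2L and 3351 bp on 3R, and the replicate medians were 3420 ± 44.8 bp on 3L, 3032 ± 381 bp on 2L and 3318 ± 175 bp on 3R. Over 10 kb from a start lay 70 of the 421 peaks of 3L, or 16.6%, against 10.4% on 2L and 9.88% on 3R. In the replicates this share was 15.6% ± 0.416 on 3L, 9.05% ± 0.117 on 2L and 10.4% ± 1.19 on 3R. The higher density was present at each distance, with 5.18 peaks per Mb of arm up to 2 kb from a start against 3.49 on 2L and 3.03 on 3R. Over 10 kb from a start the densities were 2.50, 0.978 and 0.780.

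Intergenic peaks of 3L were also as reproducible as the other peaks of the arm. A strongest call of all 3 replicates overlapped 290 of the 421, or 68.9%, against 71.1% of 3L peaks at starts and 69.2% of those in introns. The share was 62.6% for intergenic peaks of 2L and 65.2% for those of 3R. Their median pooled signal was 179, against 165 on 2L and 178 on 3R.

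The intergenic difference faded with the rank of the calls. Among the 1000 strongest calls of a replicate, the ratio of intergenic density on 3L to that on 2L and 3R was 1.76 ± 0.111 (SD, n = 3). It was 1.98 ± 0.0819 at ranks 1001 to 3000 and 1.67 ± 0.0674 at ranks 3001 to 6469. Below the IDR limit it was 1.40 ± 0.0284 at ranks 6470 to 15000, 1.19 ± 0.0986 at ranks 15001 to 25000 and 1.11 ± 0.0884 at ranks 25001 to 29000. The lists of the replicates include background calls on purpose. In the last ranks calls of all kinds were as dense per Mb of whole arm on 3L as on the other arms, at a ratio of 1.00 ± 0.0482. At starts the ratio was between 0.906 and 1.03 in all 6 windows of rank, and in introns between 0.960 and 1.05. All these ratios are over whole arms, pericentric sequence included, which lowers them. In the IDR set, leaving that sequence out moved the ratio from 0.990 to 1.09 at starts and from 0.958 to 1.05 in introns. The intergenic ratio moved from 1.76 to 1.93. The arm was chosen on the pooled IDR set, and some IDR peaks ranked below 6469 in a replicate. The IDR peak with its summit at 10735280, for instance, was at rank 10455 in replicate 2. The windows below rank 6469 are therefore not free of the peaks that chose the arm.

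**Figure D5:**
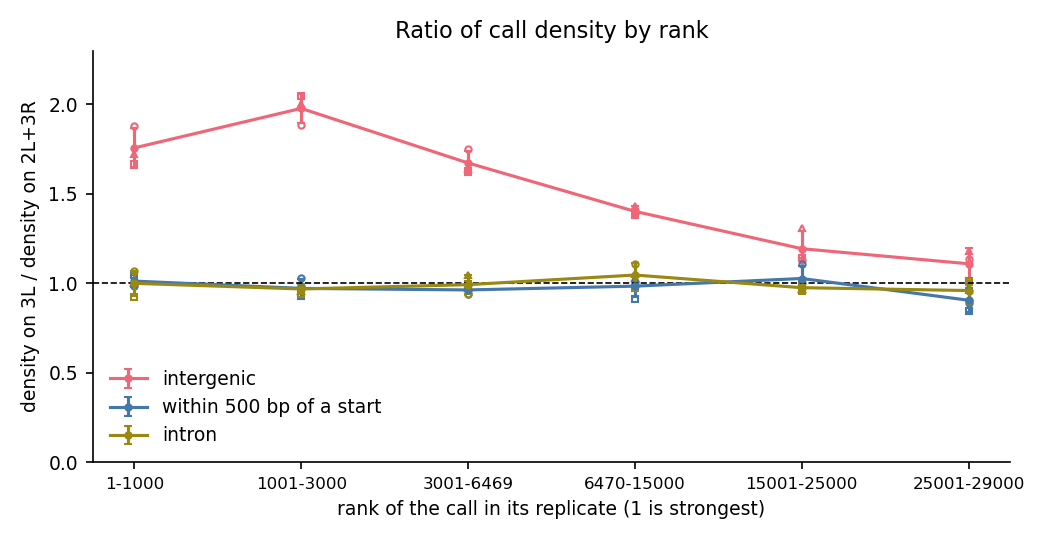
Ratio of call density on 3L to that on 2L and 3R by rank of the call in its replicate, for summits in intergenic sequence, at starts and in introns, with a symbol for each replicate and the mean ± SD (n = 3). The intergenic ratio goes from 1.98 at ranks 1001 to 3000 to 1.11 at ranks 25001 to 29000, and the other ratios stay near the dashed line at 1. Densities are over whole arms, pericentric sequence included.

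The strongest 3L peak lay at the start of CG14100 (FBgn0036889; 19590427 to 19590806), whose sequence is shown above, and was ranked 4 in the IDR set. Its signals in replicates 1, 2 and 3 were 955, 891 and 912. The peak within 500 bp of the starts of both Chro, for a protein of open chromatin, and Ssl1, for part of the transcription factor TFIIH, was ranked 15. Its signals were 685, 609 and 700. Hsp27, a small heat shock gene, was next at rank 20, with 719, 499.6 and 675. The scaling of signals between libraries is unknown, so their spread may include a difference in scale.

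Of the 15 strongest 3L peaks, 10 lay at starts, 4 in introns and 1 was intergenic. The other starts were those of CHMP2B, for a protein of the ESCRT-III membrane-cutting machinery, with Tcs5, of CG11309 with CG7632, of CG3437 with CG3552, of aay, CG3961 and CG11357, and of mRpL23, a mitochondrial ribosomal protein gene, with CG9004. The introns were those of CG32486, of Trl, which encodes the GAGA factor, of Eip78C, which encodes a nuclear receptor of the ecdysone response, and of Tet, whose product belongs to a family of DNA demethylating enzymes.

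At the level of genes, 510 of the 2739 protein-coding genes of 3L, or 18.6%, had an IDR summit within 500 bp of a start, against 17.0% of all 13968 coding genes and 16.8% of those of 2L and 3R. The difference from 2L and 3R was 1.81 percentage points. In replicates 1, 2 and 3 it was 1.46, 0.979 and 1.32 points, a mean of 1.25 ± 0.245, so all were of one sign. Over whole arms, pericentric sequence included, coding genes were sparser on 3L, at 97.8 per Mb against 113 on 2L and 107 on 3R. That gene-poor sequence was 4.999 Mb on 3L, 1.51 Mb on 2L and 3.98 Mb on 3R, and it lowers the value of 3L most. A summit in the body lay in 13.7% of the 3L genes, or 375.

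Some long genes held many peaks. Tet held 19 IDR summits in its 93.0 kb body, with 21, 11 and 19 calls in the replicates, so replicate 2 was lower there. Svil, which encodes an actin-binding protein of the villin family, held 14, with 14, 13 and 14 calls. Eip75B, a nuclear receptor gene of the early ecdysone response, held 14, with 13, 12 and 15. Ptp61F, a tyrosine phosphatase gene whose annotated span also holds ru and rho, held 13, and CG33158, whose span holds aos, held 10, so those counts are shared between genes that overlap. bbg and ftz-f1 held 12 each, and shep, tna and fz held 9 each. Of these, ftz-f1 encodes a nuclear receptor of prepupae and fz a Wnt receptor.

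In the 5 fullest bins, the genes with most peaks in their bodies held 3 to 10 each. In bin 1 these were Hipk, a protein kinase gene, with 8, hng3 with 7, of which 2 lay in emc inside its span, and klar with 6. In bin 17 they were CG33158 with 10 and CG5151 and Exn with 6 each, and the strongest peak, at rank 225, lay at a start of aos, which encodes the EGF receptor antagonist Argos. In bin 4 they were Eip63E and CG32264 with 8 each and eIF5B, for a translation initiation factor, with 7. In bin 11 they were tna with 9 and simj and lncRNA:CR46006 with 7 each. In bin 12 the counts were lower, with 6 for Mob2 and 3 each for CG42671 and JIL-1, a histone kinase gene, and the strongest peak was intergenic, near CG6149 at rank 182.

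Groups of 3L genes differed in how many members had a peak at a start, to be read against the 18.6% of all 3L genes. The lists were written with earlier results of these data known and are described by counts alone. Of 9 genes of the ecdysone response on 3L, 4 had a peak at a start, and in the replicates 4, 5 and 6. They were Eip75B (rank 407), Hr78 (rank 606), Eip63F-1 (rank 1033) and Eip74EF (rank 4039). All 9 had a peak in the body, against 13.7% of all 3L genes, but several are far longer than the arm's median coding gene of 2.13 kb. The bodies held 50 peaks in total, with 14 in Eip75B, 12 in ftz-f1 and 8 in Eip63E, whose product is a cyclin-dependent kinase. Of 14 genes for glue proteins and late puff products, such as Eig71Ea and Eig71Eb, 0 had a peak at a start or in the body, and the replicates also had 0.

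In the small heat shock cluster 67B, 3 of 6 genes had a peak at a start, namely Hsp27 (rank 20), Hsp26 (rank 339) and Hsp22 (rank 1492). The replicates had 4, 2 and 3 of them. Of the 4 cell death genes hid, grim, rpr and skl, only hid had a peak at a start in the IDR set, and the replicates had 1 each.

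Of 13 chromatin genes, 6 had a peak at a start, and 5, 7 and 6 in the replicates. They were Chro (pooled signal 1997), brm, the ATPase of the Brahma remodelling complex (1072), E(z), the histone methyltransferase of the Polycomb repressive machinery (649), Trl (399), rept (171) and pzg (139). Trl held 6 summits in its body.

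Of 13 signalling genes, 5 had a peak at a start, and 5, 3 and 5 in the replicates. A summit in the body lay in 12 of them, against 13.7% of all 3L genes. Several of the 13 are far longer than the arm's median coding gene of 2.13 kb, with fz and fz2 at 94.3 and 94.4 kb. The 5 with a peak at a start were aos (pooled signal 825), nkd, an antagonist of Wnt signalling (527), the glypican genes dlp (241) and dally (115), and fz2, a Wnt receptor gene (124). The bodies held 53 peaks in total, with 9 each in fz and fz2 and 7 in nkd.

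Of 26 patterning transcription factor genes, 4 had a peak at a start (trh, Sox21b, eyg and emc), close to the share of all 3L genes. A summit in the body lay in 8 of them, to be read against 13.7% of all 3L genes. The most were the 6 of bab1, a gene of 64.7 kb against the arm's median of 2.13 kb. Of 11 long neuronal and adhesion genes, 2 had a peak at a start, Tet and Tollo, and 4 had summits in the body, with 4 in caps and 3 in Mp beside those of Tet. The same 13.7% is the share to read that against, and caps, Mp and Tet are 51.0, 54.7 and 93.0 kb long. Of 45 cuticle protein genes, 0 had a peak at a start in the IDR set, with 1, 0 and 0 in the replicates, and the 4 summits in bodies lay in Cpr73D and Cpr62Ba.

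Base composition around summits was close between the arms. The 201 bases centred on 3L summits held 33.4% GC on average, against 34.1% on 2L and 3R, a difference of −0.636 percentage points. In replicates 1, 2 and 3 it was −0.856, −0.547 and −0.483 points (−0.629 ± 0.1997), all of one sign. The arms also differed in background, as all windows along them held 42.1% GC on 3L, 42.0% on 2L and 42.9% on 3R. The difference at summits was not corrected for that. Intergenic summits of 3L were the lowest at 32.7%, while windows along intergenic 3L sequence held 40.4%.

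In these windows 9 short sequence motifs were searched on both strands. A run of 8 A (AAAAAAAA) lay at 17.8% of 3L summits, 17.3% of those of 2L and 3R and in 10.1% of windows along 3L. The motif GATAAG, bound by GATA factors, was at 10.3% of 3L summits, 9.66% of those on 2L and 3R and in 8.46% of 3L windows. GAGAG, of the GAGA factor, was at 21.0%, 22.1% and 21.5%. TATCGATA, the DNA replication-related element of many housekeeping promoters, was at 16 of the 1496 summits of 3L, or 1.07%, against 1.36% on 2L and 3R and 0.449% of 3L windows. It was at 0 of the 421 intergenic summits of 3L, against 4 of 475 on 2L and 3R and 0.324% of windows along intergenic 3L sequence. The POU factor octamer ATGCAAAT was rarer on 3L, at 2.27% of its summits against 3.14% on 2L and 3R, and in 3.69% of 3L windows. At intergenic summits it was at 1.90% (8 of 421) on 3L against 4.00% (19 of 475). The replicates gave 3.10%, 2.16% and 2.58% against 4.34%, 3.81% and 4.35%, which do not overlap, though the counts are small. The repeat CACACACA was at 3.74% of 3L summits against 2.84% on 2L and 3R, and in 4.02% of 3L windows. Its replicate means were 3.71% ± 0.382 and 3.18% ± 0.833. Over all summits, the motifs AGGTCA, of nuclear receptors (4.08% against 4.13%), TGANTCA, of AP-1 (4.21% against 4.70%), and CAGGTAG, of Zelda (0.869% against 0.795%), were close between the arms. In 3L windows AGGTCA was at 5.22%, TGANTCA at 4.16% and CAGGTAG at 1.07%. At intergenic summits AGGTCA was at 2.85% (12 of 421) on 3L against 3.79% (18 of 475). Its replicates there gave 3.10%, 3.125% and 2.32% against 3.47%, 4.02% and 4.81%, which do not overlap either, on small counts. A match describes the letters in a window and does not mark a bound site.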

How the data were processed

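Whole white prepupae of 1 transgenic line were assayed by ChIP-seq in 3 biological replicates, per the labels. The authors deposited peak lists on dm3 and dm6: 30000, 29322 and 30000 calls per replicate, a pooled list and the IDR set. Each call carried a signal and a significance value on the −log10 scale, both as the authors deposited them; the signal ranked calls and the −log10 values were not used. Not given in the sources used here are the aligner, the peak caller, the control correction, the treatment of reads with several matches, the IDR threshold and the read depth, so no counting error could be attached to a peak.

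The IDR peaks were the strongest 6469 pooled calls and have no replicates of their own, so the strongest 6469 calls of each replicate are given beside them as mean ± SD. Summits were placed on the Release 6 genome and the Ensembl release 115 annotation without transposable elements (18277 genes on the main chromosomes) with Python 3.11.15, numpy 2.4.6 and pandas 2.3.3, and figures were drawn with matplotlib 3.10.9. Densities are per Mb of bases other than N. Coordinates are 1-based. The counting was tested on simulated peaks of known position. Of 144 gene list entries, 141 matched a 3L gene; Eip71CD, Hsp67Bb and h were dropped. Alternatives were the strongest 3234 peaks, merged peaks, arms without pericentric sequence, other windows and bins, dm3, and leaving out each replicate.

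Named genes were those of the 15 strongest peaks, the 10 bodies with most summits, the 3 leading bodies and strongest peak of each of the 5 fullest bins, and leading members of each list. Genes beside crowded gaps, the gaps themselves and the sequences shown were chosen after their values were seen. The sequence of 1 further peak is not reported here. The members and lists were chosen with earlier results of these data known.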

Additional observations from a re-analysis of the deposited data

How the results depend on the processing

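No paired analysis was possible because the series holds 1 group. The whole difference (5.92 peaks per Mb) was 2.43 in the strongest 3234 peaks of the IDR set, 5.31 with overlapping peaks merged, 12.4 without pericentric sequence, 4.44 for peaks overlapped over 50% of their length in all replicates and 12.1 in the dm3 set, counted over the span of its calls; the intergenic part (6.49) was 3.30, 5.60 and 8.84 under the first 3 of these and 5.84 with a 1000 bp window, so it kept its sign throughout. The part at starts (−0.164) was −0.573 in the strongest 3234, and turned to 1.67 without pericentric sequence and 0.315 with the 1000 bp window. The intronic part (−0.870) turned to 1.20 without pericentric sequence. The exonic part (0.458) turned to −0.0209 in the strongest 3234 and was 0.174 with only protein-coding genes as gene bodies, an alternative added after the data were seen. Leaving out a replicate keeps only peaks found in both others (4937 to 5001), which lowers densities: it gave 4.53 to 4.65 for the whole difference, 5.08 to 5.42 for the intergenic part, −0.0661 to 0.0646 at starts (0.0646 without replicate 3), −1.03 to −0.493 in introns and 0.0135 to 0.192 in exons. The bins of 3L above the median of the other arms were 30 of 56 at 500 kb and 9 of 14 at 2 Mb. The difference in genes with a peak at a start (1.81 points) was 2.28 with the 1000 bp window, 1.05 in the strongest 3234 and 1.21 to 1.82 without a replicate. The share in the 5 fullest bins (32.3%) was 32.8% in the strongest 3234, 32.0% with merged peaks and 33.5% to 34.1% without a replicate. The GC difference kept its sign under all 6 alternatives run. Read depth is unknown, so what it limits could not be measured.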
